A study of Mus musculus with 6 samples.

Results

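The region is the stretch of mouse chromosome 12 from 17.9 to 25.2 Mb (genome build mm10, chr12:17900000-25200000). Its members were the genes of the count table that overlap it in GENCODE release M21 and that had 10 or more counts summed over the 6 libraries. That gave 112 members of 191 genes of the table that lie there, out of 53379 genes in all. Of the 79 genes left out, 50 had no read in any library. The region was chosen from these same data, because 3 libraries differed there from the other 3. Npas3+/- replicates 1 and 3 and WT replicate 1 are called set A below, and Npas3+/- replicate 2 and WT replicates 2 and 3 set B, with values always in that order. The sets are no groups of the study, and their values are given library by library as a description, with no test.

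The study measured bulk RNA in cortex of C57BL/6 mice at postnatal day 0. The 3 Npas3+/- libraries come from animals with 1 disrupted copy of Npas3, a gene for a neural transcription factor of the bHLH-PAS family, and the 3 WT libraries carry both copies. The labels name no driver or Cre, give no sex or litter, and do not say whether each replicate is its own animal. A p-value here therefore speaks only of the spread among these 6 libraries, which may be technical. In bulk tissue, fewer cells of a type and less RNA per cell cannot be told apart.

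Pseudogenes are copies of genes that have lost the ability to make the original protein. Processed pseudogenes were copied from a spliced messenger RNA, and unprocessed ones from duplicated DNA. Where a stretch of DNA has been duplicated many times, a short read can match several of its copies, and the count of each copy then depends on how such reads were assigned.

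By the annotation, 73 of the 112 members are pseudogenes of some kind, 39 of them unprocessed and 33 processed. A further 18 are protein-coding and 17 are long noncoding RNAs. A total of 94 members have only a Gm or Rik symbol, given to predicted or cloned transcripts with no assigned name. Of the protein-coding members, 14 have a name that stands for a known protein. They lie in groups, with 6 between 20.9 and 21.9 Mb, 6 between 23.9 and 24.9 Mb and 2 beyond it, while the stretches between hold mostly pseudogenes.

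Many of the predicted members carry a copy of the start of Asap2, itself a member and an Arf GTPase-activating protein that acts on membranes and the actin cytoskeleton. The coding part of the first coding exon of Asap2 (126 bases, chr12:21112044-21112169) was aligned to all annotated transcripts, and 80 or more matched bases at 85% identity or more were counted as a copy. This found 48 genes in all, Asap2 included, of which 44 overlap the region and 30 are members. The sequences below are from the GENCODE M21 transcripts (GRCm38, sense strand) and are shown because near-identical copies differ in their counts between libraries. Capitals mark bases that differ from Asap2, or that Asap2 lacks. Bases of Asap2 that a copy lacks carry no mark, as in 2410018L13Rik, whose copy has 123 bases.
Asap2: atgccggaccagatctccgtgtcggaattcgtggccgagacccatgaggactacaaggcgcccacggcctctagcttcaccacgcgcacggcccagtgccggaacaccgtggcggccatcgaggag
Gm40847: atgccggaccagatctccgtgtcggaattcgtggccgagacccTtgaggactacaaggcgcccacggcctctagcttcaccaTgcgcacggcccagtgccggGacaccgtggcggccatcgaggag
Gm47393: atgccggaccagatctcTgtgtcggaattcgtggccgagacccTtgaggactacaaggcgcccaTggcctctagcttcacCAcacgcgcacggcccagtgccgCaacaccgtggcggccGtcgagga
Gm48667: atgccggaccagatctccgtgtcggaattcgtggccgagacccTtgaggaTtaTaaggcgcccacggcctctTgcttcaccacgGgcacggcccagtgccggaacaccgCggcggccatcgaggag
2410018L13Rik: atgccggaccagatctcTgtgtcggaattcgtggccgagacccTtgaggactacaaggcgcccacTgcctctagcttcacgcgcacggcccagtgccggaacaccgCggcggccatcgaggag
9030624G23Rik: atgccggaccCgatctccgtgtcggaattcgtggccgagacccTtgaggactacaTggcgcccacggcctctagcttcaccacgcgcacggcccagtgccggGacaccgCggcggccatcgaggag
Zfp125: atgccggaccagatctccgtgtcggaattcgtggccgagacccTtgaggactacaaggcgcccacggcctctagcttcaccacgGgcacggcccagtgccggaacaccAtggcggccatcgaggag

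Gm40847 (chr12:18853840-18906503, plus strand) matched 97.6% of the aligned bases and Zfp125 (chr12:20877084-20921262, minus strand) also 97.6%. The copies in 9030624G23Rik (chr12:24043202-24097246), Gm48667 (chr12:20196916-20197054), Gm47393 (chr12:23426757-23426883) and 2410018L13Rik (chr12:22953997-23010284) matched 96.0, 95.2, 94.5 and 94.4%. Gm20486 (chr12:22274385-22274512) and Gm47393, annotated as separate pseudogenes, were identical over all 127 bases of Gm47393. Of the 30 members with a copy, 9 were higher in set B with no overlap, beside 4.26% of all genes, 8 were higher in set A, beside 3.95%, and 13 overlapped. Among the copies printed, Gm40847, Gm47393 and Gm48667 were higher in set B and 2410018L13Rik, 9030624G23Rik and Zfp125 in set A.

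RefSeq promoter windows (GRCm38.p6, 250 bases before to 50 after a start) were found for 29 members, but for only 2 of the 17 members with the widest separation described below. One window of each is printed because these transcripts had no read in set A; of several for Gm40847 it is the one over its annotated start. The first runs over chr12:18853705-18854004 on the plus strand and the second over chr12:25128924-25129223 on the plus strand. Capitals mark a match on either strand to the TATA box (TATAAA), to the CCAAT box or to the GC box (GGGCGG), motifs that do not overlap here.
Gm40847: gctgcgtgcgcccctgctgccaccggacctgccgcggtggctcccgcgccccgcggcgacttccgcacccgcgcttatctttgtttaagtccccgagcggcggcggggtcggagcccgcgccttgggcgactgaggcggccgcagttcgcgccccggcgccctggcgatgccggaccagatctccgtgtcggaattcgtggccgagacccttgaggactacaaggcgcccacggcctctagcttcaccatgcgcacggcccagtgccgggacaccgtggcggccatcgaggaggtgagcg
Gm17746: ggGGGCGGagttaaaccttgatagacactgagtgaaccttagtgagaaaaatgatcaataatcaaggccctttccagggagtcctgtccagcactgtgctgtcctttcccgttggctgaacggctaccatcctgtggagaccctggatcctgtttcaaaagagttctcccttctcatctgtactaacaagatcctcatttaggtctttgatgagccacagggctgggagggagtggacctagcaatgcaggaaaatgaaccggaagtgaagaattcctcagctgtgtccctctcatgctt
The Gm40847 window holds the whole copy of the Asap2 start printed above and none of the 3 motifs. The Gm17746 window holds 1 GC box. Across 32851 promoters of the same length, 13.6% hold the TATA box, 37.4% the CCAAT box and 35.7% the GC box.

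Each library held between 67378231 and 87811574 counts, and the biological coefficient of variation was 26.1%. Npas3 (chr12:53248677-54072175), on the same chromosome but outside the region, had 1315, 1087 and 650 counts with 1 copy disrupted (Npas3+/-), against 1583, 2388 and 1845 counts in WT cortex. All 3 Npas3+/- values lay below WT, at a log2 fold change of -1.04 (SE 0.20, edgeR adjusted p = 0.27). Summed markers of cortical projection neurons, the defining type of the tissue, ran from 1986 to 2832 CPM (counts scaled to library size, with TMM factors). Summed striatal markers were 74.9, 119 and 185 CPM in set A, against 88.2, 228 and 78.6 CPM in set B, so they overlapped between the sets. Of 37 cell type markers, none reached the separation of 1 defined below, beside 0.656% of all genes, and 4 did not overlap, beside 8.21%. No 2 libraries were alike within counting noise.

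The split was measured per gene as a gap on log2 CPM (prior count 2): the lowest library of the higher set minus the highest of the lower set, so that a gap above 0 means no overlap. The gap was 1 or more for 17 members, all of them higher in set B and none in the other direction. Members higher in set A do reach the threshold under other settings, 7 of 26 at a gap of 0.5, 1 of 18 with scaling by library total, 1 of 19 with a prior count of 0.5 and between 0 and 2 with 1 library left out. Over all 27293 genes with 10 or more counts, 179 had such a gap, 0.656% of them, with 0.48% in the direction seen here and 0.176% in the other. The 17 members had a summed level of 2.19 CPM in Npas3+/- 1, 1.89 in Npas3+/- 3 and 2.59 in WT 1, against 16.6 in Npas3+/- 2, 14.6 in WT 2 and 14.6 in WT 3. The order of these sums follows from how the 17 were chosen. Each set of libraries holds both genotypes. The sums were close to each other within each set, and Gm9269, Gm9292 and Gm48667 hold most of each sum in set A. Some single members varied more within set B, such as Gm46313 with 123, 172 and 57 counts.

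**Figure D1:**
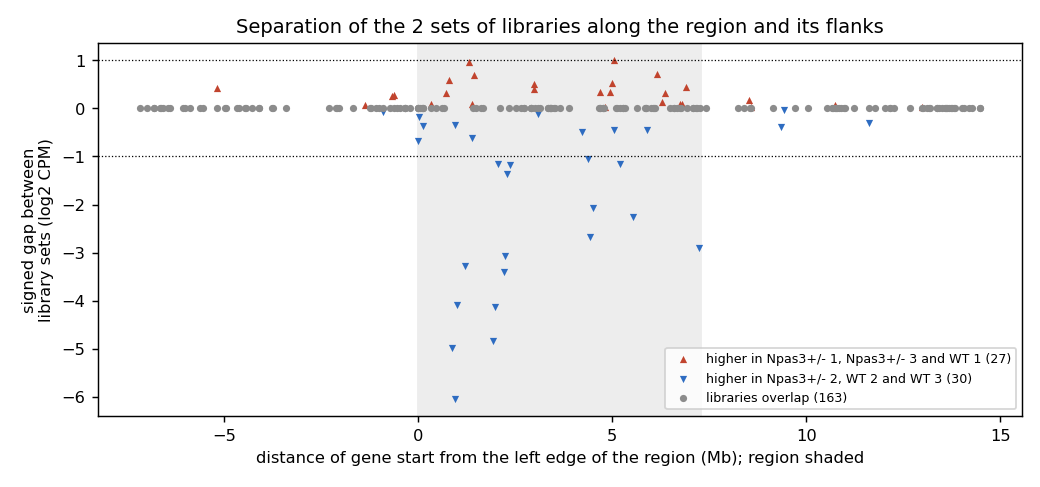
Signed gap on log2 CPM for each gene with 10 or more counts, against the distance of its start from the left edge of the region in Mb; genes whose libraries overlap are drawn at 0, and dotted lines stand at a gap of 1. Red triangles (higher in Npas3+/- 1, Npas3+/- 3 and WT 1) stay within 1 of the zero line, while 17 blue triangles (higher in Npas3+/- 2, WT 2 and WT 3) of the genes drawn lie beyond it, all inside the shaded region.

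The members with the widest gaps were predicted transcripts of low level. A total of 15 of the 17 had a mean under 1 CPM and were named after their values were seen. Gm40847, a processed transcript, had 0, 0 and 0 counts in set A, against 167, 141 and 125 counts in set B. Gm46313 (chr12:18773494-18776375), an unprocessed pseudogene, had 0, 0 and 0 counts in set A, against 123, 172 and 57 counts in set B. Gm9259 (chr12:19824891-19830372), another unprocessed pseudogene, had 0, 0 and 0 counts in set A, against 63, 60 and 65 counts in set B. These members were read in each library of set B and in no library of set A. With each empty library taken at a floor of 3 counts, which covers counting error only, every library of set A was at least 37.9-fold lower for Gm40847 than the lowest library of set B. By the same measure Gm46313 was at least 17.9-fold and Gm9259 at least 16.1-fold lower. Of the 50-base stretches of their transcripts, 72.4% for Gm40847, 50.6% for Gm46313 and 28.9% for Gm9259 also lie in another annotated gene. The member Gm49370 lies within the span of Gm40847. These bounds do not cover how shared reads were assigned.

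Gm48643 (chr12:19865126-19865495), a processed pseudogene, was not empty in every low library. It had 1, 0 and 5 counts in set A, against 148, 157 and 123 in set B. Gm46338 (chr12:18905926-18911358) had 0, 0 and 0 counts in set A, against 32, 37 and 51 counts in set B, but its first bases overlap the end of Gm40847 on the same strand. Reads in that overlap cannot be given to 1 gene. Of the 50-base stretches of the Gm46338 transcript, 82.9% also lie in the member Gm49248. Gm49382 lies within the span of Gm9265 but between its annotated exons, and both are pseudogenes. Gm49382 had 0, 0 and 0 counts in set A against 20, 16 and 16 in set B, and Gm9265 had 0, 0 and 1 in set A against 38, 34 and 40 in set B. Of the 50-base stretches of Gm9265, 100% also lie in the member Gm6943, which overlapped between the sets. The count of Gm9265 is therefore uncertain. Without members whose span overlaps another member, 13 of the 17 still had a gap of 1 or more, an alternative added after seeing the data.

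Gm17746 (chr12:25129174-25134931), a long intergenic noncoding RNA at the right end of the region, had 0, 0 and 0 counts in set A, against 16, 14 and 42 counts in set B. It stood apart in its sequence: none of its 50-base transcript windows was found in another annotated gene, whereas the other 16 members with such a gap all shared some. Its gap was 2.90 on log2 CPM, and the low counts make that value depend on the prior count.

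Gm9269 (chr12:20275039-20278028) and Gm9292 (chr12:23112535-23115584) were the members with such a gap that averaged at least 1 CPM, and neither was empty in any library. Gm9269, an unprocessed pseudogene, had 1.39, 1.03 and 1.45 CPM in set A, against 4.33, 3.45 and 3.29 CPM in set B. Gm9292, also unprocessed, had 0.58, 0.49 and 0.739 CPM in set A, against 2.20, 1.68 and 1.76 CPM in set B. Their gaps were 1.17 and 1.16. Gm48667, a processed pseudogene with an Asap2 copy, had 0.193, 0.344 and 0.295 CPM in set A, against 1.12, 0.929 and 1.11 CPM in set B. These 3 members were low but present in set A.

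The remaining members past a gap of 1 were Gm9158, Gm6838, Gm47393, Gm49248, Gm21863 and Gm20486, with at most 25 counts in any library. Of the 50-base windows of Gm6838, 99.8% also lie in genes that are no members. Gm47393 had 2, 1 and 0 counts in set A, against 16, 25 and 17 in set B. Its identical copy Gm20486 had 0, 0 and 0 counts in set A, against 7, 5 and 2 in set B. Since these 2 pseudogenes share every base of Gm47393, reads that lie within those bases cannot be told apart. The sequence around them was not compared.

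Complete absence was also counted by set. A total of 11 members had no read in set A and at least 1 read in each library of set B. Among all genes 0.381% did so, and the reverse pattern, 0.176% of all genes, was seen in 0 members. Summed over the 11 members, the counts were 0 in Npas3+/- 1, 0 in Npas3+/- 3 and 0 in WT 1, against 493 in Npas3+/- 2, 518 in WT 2 and 415 in WT 3. The sums of 0 follow from how the 11 were chosen. Over all 112 members, 22, 23 and 26 had no read in the libraries of set A, against 7, 7 and 8 in those of set B. The floor of 3 counts corresponds to 0.0341 to 0.0443 CPM. Of the 11 members, Gm10479 (9, 29 and 1 counts in set B) and Gm20486 (7, 5 and 2) had a lowest library of set B below this floor. By that measure these members cannot be called lower in set A.

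With any gap above 0 counted, 45 members did not overlap between the sets, 40.2% of the members, beside 8.21% of all genes. They ran in both directions: 19 were higher in set A, beside 3.95% of all genes, and 26 in set B, beside 4.26%. The gaps of the 19 were smaller, from 0.02 to 0.997, but their levels were higher. Their summed CPM was 130 in Npas3+/- 1, 122 in Npas3+/- 3 and 122 in WT 1, against 81.4 in Npas3+/- 2, 66.7 in WT 2 and 76.9 in WT 3. The order of these sums follows from how the 19 were chosen, and Rrm2, Zfp125 and 2410018L13Rik hold most of each sum.

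**Figure D2:**
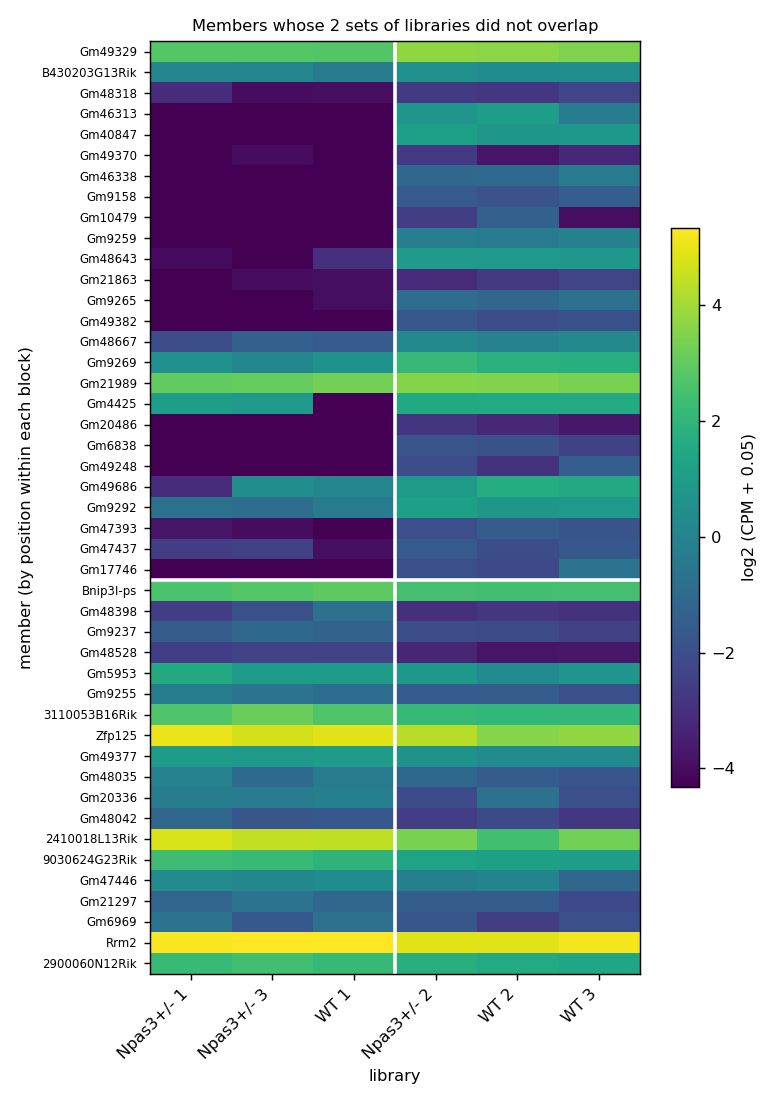
Level of each of the 45 members without overlap, as log2 (CPM + 0.05), in the 6 libraries, with Npas3+/- 1, Npas3+/- 3 and WT 1 left of the white line and Npas3+/- 2, WT 2 and WT 3 right of it. The upper block holds the 26 members higher on the right, many of them at the darkest colour (no read) on the left, and the lower block the 19 members higher on the left.

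2410018L13Rik, a long intergenic noncoding RNA, came closest to a gap of 1 in the other direction. It had 27.2, 21.8 and 21.1 CPM in set A, against 10.6, 5.21 and 9.60 CPM in set B, a gap of 0.997. Gm49686 (chr12:22953995-22960306) overlaps it on the same strand and ran the other way. It had 0.0682, 1.28 and 1.0 CPM in set A, against 1.75, 3.11 and 2.81 CPM in set B. Of the windows of Gm49686, 93% also lie in 2410018L13Rik, so both counts are uncertain.

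Zfp125 is annotated as a transcribed unprocessed pseudogene, although its symbol is that of a zinc finger gene. It had 32.7, 25.9 and 28.8 CPM in set A, against 19.6, 11.8 and 13.2 CPM in set B. 3110053B16Rik shares its right end and strand and had 6.35, 8.72 and 6.38 CPM in set A, against 4.43, 4.19 and 4.15 CPM in set B. 9030624G23Rik, a predicted protein-coding gene, had 4.95, 4.65 and 3.80 CPM in set A, against 2.31, 2.18 and 2.01 CPM in set B. None of the 3 overlapped between the sets, with gaps of 0.40, 0.52 and 0.71.

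Gm49329 (chr12:17900734-18065610), a transcribed unprocessed pseudogene at the left edge, was lower in set A at a higher level than the 17. It had 6.78, 6.94 and 6.59 CPM in set A, against 13.2, 12.4 and 11.1 CPM in set B. Gm4425, a long intergenic noncoding RNA, set 1 library apart within its own set. It had 176 counts in Npas3+/- 1, 135 in Npas3+/- 3 and 0 in WT 1, against 218, 250 and 213 in set B.

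The separation was not even along the region. In 1 Mb steps from 17.9 Mb, 2, 4, 5, 0, 3, 2, 0 and 1 members had a gap of 1 or more, of 18, 12, 17, 13, 13, 16, 17 and 6 members. The 13 members of the step from 20.9 Mb, where none had such a gap, include Asap2, Cpsf3, Adam17 and Ywhaq. Outside the region, 0 of 52 genes in the 7.3 Mb to the left and 0 of 56 in the 7.3 Mb to the right had such a gap. Of these genes, 5 (9.62%) on the left and 7 (12.5%) on the right did not overlap, beside 8.21% of all genes. A gap of 1 or more was found for 5 of 1062 genes on the rest of chromosome 12, and for 157 of 26119 on all other chromosomes. Of 354 windows of 7.3 Mb with 10 or more genes, no other held more than 3 such genes, and the median was 0. The region was chosen as the stretch with such genes, so these counts describe where it ends and test nothing.

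Few genes lay near the threshold on counts. Of 13 members with 10 to 19 counts, 1 had a gap of 1 or more, and of 11 genes of the region with 5 to 9 counts, which are no members, 1 also did. With 1 such gene on each side, these counts cannot say whether the pattern is alike on both.

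By role, the 17 members were 14 of the 72 pseudogenes other than Zfp125, 2 of the 17 long noncoding RNAs and 1 of the 4 predicted protein-coding genes, and they included none of the 14 named protein-coding genes. Among the 14 named protein-coding genes 1 did not overlap between the sets, beside 8.21% of all genes. This was Rrm2, the small subunit of ribonucleotide reductase. It had 37.5, 40.0 and 40.3 CPM in set A, against 29.7, 29.5 and 35.4 CPM in set B, a gap of 0.09.

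Shared sequence was common among the members with a gap of 1 or more. A median of 69.3% of their 50-base transcript windows was also found in another annotated gene, against 32.2% for the other 95 members and 3.42% for the named protein-coding genes. At least 50% of the windows were shared in 11 of the 17 and in 38 of the 95. When members were linked by shared windows, 61 of the 112 formed 1 group, which held 14 of the 17. Of the 61, 21 were higher in set B without overlap, beside 4.26% of all genes, and 14 in set A, beside 3.95%. Among the 63 members with under 50% of windows shared, 6 had a gap of 1 or more, an alternative added after seeing the data. How reads with several matches were counted is not given in the sources used here, and its part in the split was not tested.

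**Figure D3:**
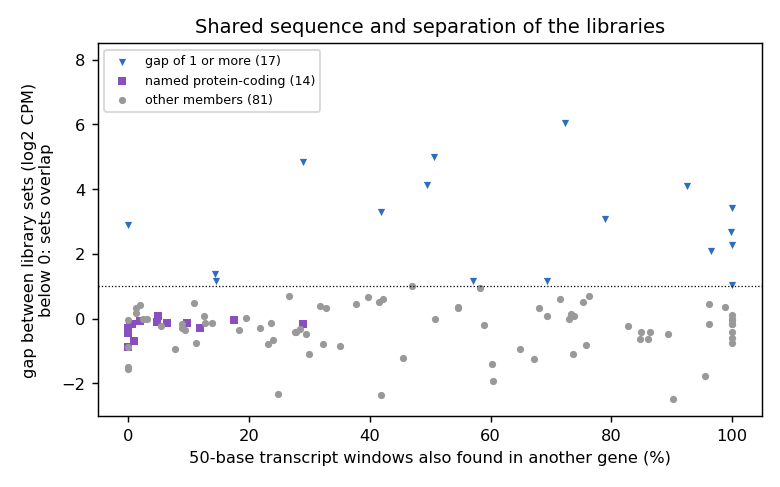
Gap between the 2 sets of libraries (log2 CPM, below 0 where they overlap) against the percent of a member's 50-base transcript windows also found in another gene. The 17 members with a gap of 1 or more, above the dotted line, run from 0 to 100% shared, and the 14 named protein-coding genes lie at the left, near or below a gap of 0.

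The genotype comparison asked which members differ between Npas3+/- and WT cortex. Of the 112 members, 78 had enough counts to be tested and 34 did not. None of the 78 passed edgeR's quasi-likelihood test at an adjusted p of 0.05, where 8 of 21244 genes did, 0.0377% of them (0.0282% higher and 0.00941% lower in Npas3+/-). At an unadjusted p under 0.05 there were 5 members, 6.41% of those tested, beside 12.1% of all genes. limma-voom called 0 members and DESeq2 called 2, Gm5784 and Klf11. DESeq2 called 3.4% of the 15051 genes to which it gave an adjusted p. Some tested members, such as Grhl1, were given no adjusted p by DESeq2. Without WT replicate 1, edgeR called 16 genes in all, and Mboat2 among the members. Of the members, 46 had a higher and 32 a lower fitted level in Npas3+/-, with a median log2 fold change of 0.05 (all genes -0.01) and a median size of 0.34 (all genes 0.17). The levels did not overlap between genotypes for 8 tested members, 5 higher and 3 lower in Npas3+/-, beside 18.9% of all genes, 9.18% being lower. Summed radial glia markers also did not overlap, at 544, 478 and 626 CPM in Npas3+/-, against 778, 814 and 766 CPM in WT. Summed choroid plexus markers were 1.41, 1.91 and 1.10 CPM in Npas3+/-, against 0.517, 0.595 and 0.85 CPM in WT, and the other 6 marker sums overlapped. The part of these cell types in the members' values was not tested.

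**Figure D4:**
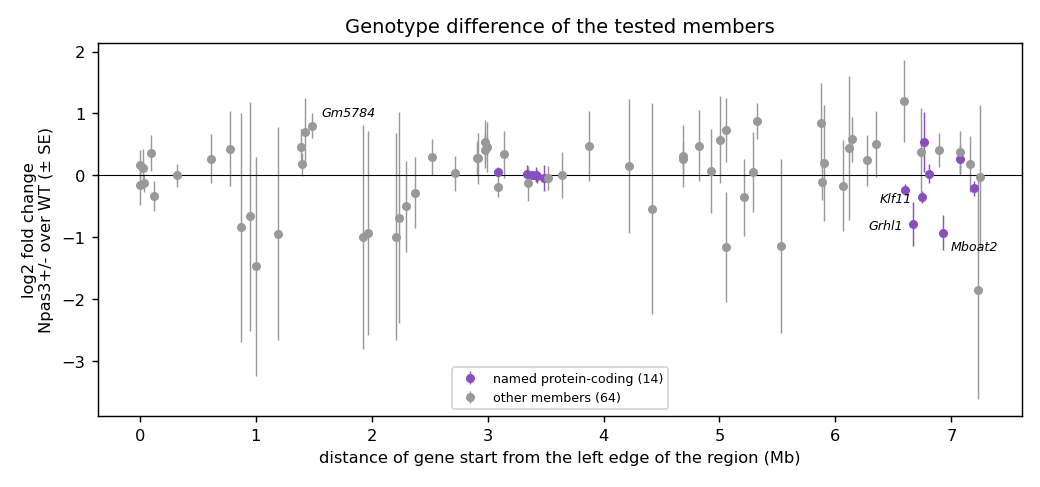
Log2 fold change of Npas3+/- over WT with its SE for the 78 tested members, against the distance of the gene start from the left edge of the region in Mb. Of the named protein-coding genes (purple), Grhl1 and Mboat2 lie farthest below 0 and Cys1 farthest above it, at 0.54 with an SE of 0.48, and the longest bars belong to members that are empty in some libraries of each genotype.

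The split lies across the genotypes, since set A holds 2 of the 3 Npas3+/- libraries and 1 of the 3 WT libraries. The 14 tested members with a gap of 1 or more had genotype log2 fold changes between -1.85 and -0.28, with a median of -0.88, and the smallest unadjusted p among them was 0.328 in edgeR. Gm46338 had a log2 fold change of -1.47 with an SE of 1.77, and Gm9259 of -0.99 with an SE of 1.81. The 17 tested members that were higher in set A had fold changes between -0.002 and 0.73, with a median of 0.43. Here the genotype difference and the uneven share of the split between genotypes cannot be told apart.

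Mboat2 (chr12:24830879-24964397), an acyltransferase that remodels membrane phospholipids, had the largest log2 fold change in size among the named protein-coding genes. It had 27.8, 31.9 and 36.1 CPM in the Npas3+/- libraries, against 34.0, 74.7 and 73.5 CPM in WT. WT 1 lay among the Npas3+/- values, so the genotypes overlapped. The log2 fold change was -0.93 (SE 0.28, edgeR adjusted p = 0.292), and without WT replicate 1 it was -1.21 with an adjusted p of 0.0387. Leaving out any other library gave adjusted p-values above the threshold, and over all alternatives they ran from 0.0387 to 0.624. 2900060N12Rik overlaps its start on the opposite strand and had 4.56, 3.24 and 5.24 CPM in Npas3+/- against 4.39, 2.94 and 2.51 CPM in WT.

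Klf11 (chr12:24651274-24662789), a Krüppel-like zinc finger transcription factor, had 38.2, 35.7 and 43.5 CPM in the Npas3+/- libraries, against 51.3, 46.8 and 51.7 CPM in WT. Every Npas3+/- value lay below every WT value. The log2 fold change was -0.35 (SE 0.09), with an adjusted p of 0.276 in edgeR and 0.0335 in DESeq2, and up to 0.601 over the other alternatives. Taf1b, a subunit of the factor that recruits RNA polymerase I to ribosomal RNA genes, had 23.6, 27.1 and 23.2 CPM in Npas3+/-, against 29.8, 27.7 and 29.2 CPM in WT. Its log2 fold change was -0.23 (SE 0.09, edgeR adjusted p = 0.373), also without overlap.

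Grhl1, a grainyhead-like transcription factor of epithelia, stood near 1 CPM. It had 0.955, 0.507 and 1.11 CPM in the Npas3+/- libraries, against 1.18, 1.51 and 1.77 CPM in WT, with no overlap and a log2 fold change of -0.79 (SE 0.35, edgeR adjusted p = 0.43), and of -0.52 without Npas3+/- replicate 2. Id2, which binds basic helix-loop-helix factors and keeps them from DNA, had 273, 287 and 293 CPM in Npas3+/-, against 311, 281 and 395 CPM in WT. WT 2 lay among the Npas3+/- values, and the log2 fold change was -0.21 (SE 0.12, adjusted p = 0.522). Leaving out WT replicate 3 gave -0.06, and leaving out WT replicate 2 gave -0.31.

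Gm5784 (chr12:19387809-19433081), a long intergenic noncoding RNA with an Asap2 copy, had the smallest genotype p of the members. It had 7.65, 5.43 and 7.02 CPM in the Npas3+/- libraries, against 4.46, 3.13 and 3.96 CPM in WT, so all 3 Npas3+/- values were higher. The log2 fold change was 0.80 (SE 0.20), with an adjusted p of 0.276 in edgeR and 0.018 in DESeq2, and up to 0.601 over the other alternatives. Gm20472 (chr12:23221227-23315358), an unprocessed pseudogene, had 1.99, 1.69 and 1.84 CPM in Npas3+/-, against 0.665, 1.15 and 1.18 CPM in WT, and Gm16372, a processed pseudogene, 0.171, 0.143 and 0.304 CPM in Npas3+/- against 0.0739, 0.0952 and 0.0975 CPM in WT. Their log2 fold changes were 0.88 (SE 0.29, edgeR adjusted p = 0.324) and 1.19 (SE 0.66, adjusted p = 0.524). Zfp125 and 9030624G23Rik, described above for the split, had fold changes of 0.54 (SE 0.35) and 0.58 (SE 0.36), with adjusted p-values of 0.592 and 0.576. With 1 library left out, Zfp125 ran from 0.32 (without WT replicate 2) to 1.06 (without WT replicate 1). 9030624G23Rik ran from 0.39 (without Npas3+/- replicate 1) to 0.92 (without WT replicate 1).

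Per kb of annotated exon, Ywhaq, a 14-3-3 protein that binds phosphorylated partners, had the highest mean level of the members at 137 CPM. Id2 followed at 126 CPM per kb, Kidins220, a scaffold of neurotrophin receptor signalling, at 73.4 and the long noncoding RNA Gm21989, which overlaps Asap2 on the same strand, at 24.5. Of the 50-base windows of Gm21989, 100% also lie in another annotated gene and 80.6% in Asap2, so its level is uncertain. In CPM not divided by length, Kidins220 had 471, 762 and 845 in the Npas3+/- libraries, against 735, 490 and 512 in WT. Ywhaq had 302, 443 and 498 CPM in Npas3+/-, against 324, 484 and 469 CPM in WT. Both overlapped between genotypes, with log2 fold changes of 0.26 (SE 0.23, edgeR adjusted p = 0.711) and -0.04 (SE 0.21, adjusted p = 0.965). Kidins220 was 0.10 without Npas3+/- replicate 3 and 0.47 without Npas3+/- replicate 1, and the sign of Ywhaq turned with some libraries left out.

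Cpsf3, the nuclease that cuts pre-messenger RNA before polyadenylation, averaged 65.9 ± 1.80 CPM in Npas3+/- and 65.9 ± 3.73 CPM in WT (SD, n = 3). Asap2 itself averaged 63.7 ± 4.10 CPM in Npas3+/- and 61.6 ± 4.39 CPM in WT. Adam17, the protease that sheds membrane-bound TNF, averaged 23.6 ± 0.859 CPM in Npas3+/- and 23.8 ± 2.82 CPM in WT, and Rrm2 averaged 35.8 ± 5.37 CPM in Npas3+/- and 35.0 ± 5.37 CPM in WT. The genotype difference of these 4 genes was within 0.05 on the log2 scale and smaller than its SE, and its sign turned with some libraries left out. Itgb1bp1, which binds the integrin beta-1 tail, Iah1, an esterase, and Cys1, a protein of the cilium, had log2 fold changes of 0.03, 0.01 and 0.54, with an SE of 0.48 for Cys1. Cpsf3, Asap2, Adam17, Ywhaq, Kidins220 and Taf1b each overlap the span of another gene on the opposite strand, and whether the counting used strand is not given in the sources used here.

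**Figure D5:**
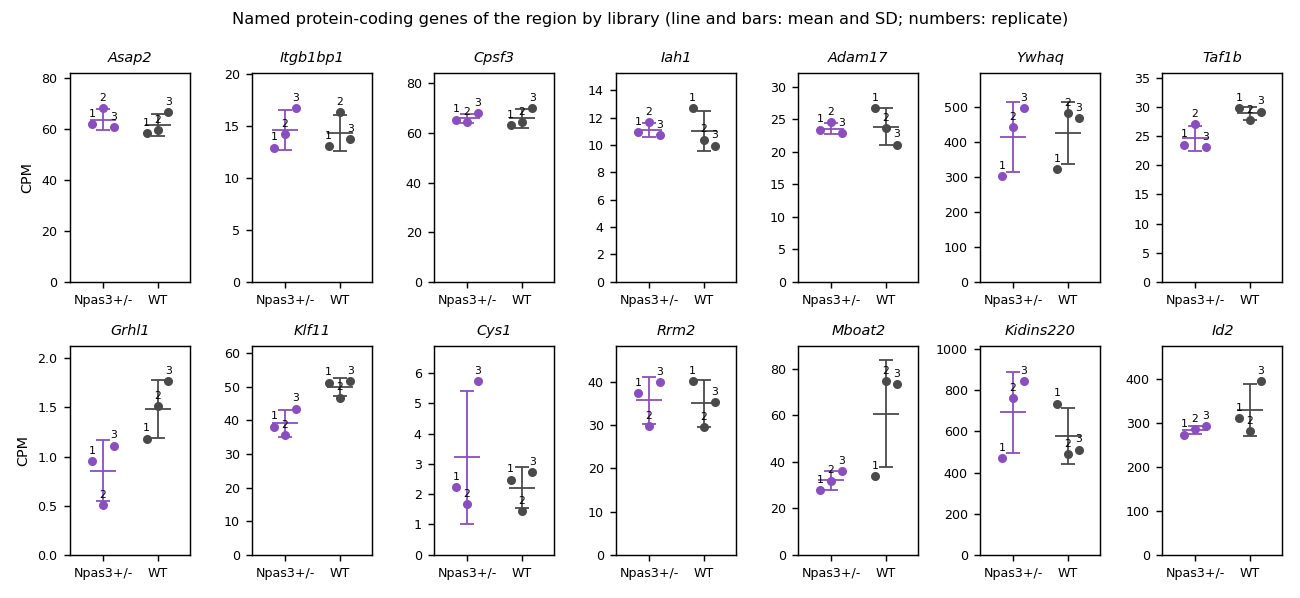
CPM of the 14 named protein-coding members in each Npas3+/- (purple, left) and WT (grey, right) library, with the mean and SD of 3 and the replicate number beside each point. Klf11, Taf1b and Grhl1 do not overlap between genotypes, and in Mboat2 only WT 1 sits among the Npas3+/- values.

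The 3 nearest tested genes on each side of the region overlapped between the sets. On the left these were Gm49326, Hpcal1 and Odc1, and on the right Rnf144a, Rsad2 and Cmpk2. Odc1, the first enzyme of polyamine synthesis, had 180, 206 and 202 CPM in set A, against 154, 195 and 204 CPM in set B. Rnf144a, an E3 ubiquitin ligase, had 88.6, 90.3 and 94.7 CPM in set A, against 78.9, 82.5 and 95.9 CPM in set B. None of the 6 passed the genotype test, with adjusted p-values from 0.593 to 0.97 in edgeR.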

How the data were processed

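The authors deposited raw read counts per gene in 1 table, made from mm10 with HISAT2 2.1.0 and featureCounts after Trimmomatic 0.3.8, as named in the submitters' processing notes. Whether strand was used, which annotation release was counted and how reads with several matches were handled are not given in the sources used here. Columns marked NP were taken as Npas3+/-, the only genotype besides WT. Gene identifiers were matched to GENCODE M21 (53274 matched, 105 not).

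Counts were fitted with edgeR 4.0.16 in R 4.3.3 (filterByExpr, TMM, glmQLFit and glmQLFTest with genotype as the only term). Benjamini-Hochberg adjustment ran over the 21244 genes of the fit, and 0.05 was the threshold. Each fold change is Npas3+/- over WT on the log2 scale, and CPM is scaled by TMM. No exact permutation test (two-sided) was used for single values, since 3 samples a genotype cannot give a p below 0.1. On simulated counts for 20558 genes, edgeR called 54.5% of genes changed 2-fold and 80.4% of those changed 4-fold, with 12 false calls. The changed genes were drawn from all tested genes and the simulation held no split between libraries. These shares therefore do not say how often a change in a member would be called.

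Alternatives were other scalings and filters, DESeq2 1.42.0, limma-voom 3.58.1, a replicate block, other gaps and prior counts, and each library left out. Same-numbered libraries of the 2 genotypes correlated at 0.04, -0.03 and -0.09 in their deviations from the genotype means. The labels do not say whether the numbers pair the libraries, and these correlations cannot decide it.

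The members and lists were chosen with earlier results of these data known. The rule for names took members with a gap of 1 or more and a mean of at least 1 CPM, the 10 smallest genotype p-values, the 10 highest levels, the 3 tested neighbours on each side and Npas3. Other members, among them 2410018L13Rik, 3110053B16Rik, 2900060N12Rik, Gm49329, Gm49686 and Gm4425, were named after their values were seen, and Itgb1bp1, Iah1 and Cys1 complete the named protein-coding genes.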

Additional observations from a re-analysis of the deposited data

How the results depend on the processing

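The genotype test called 8 genes in all, and 511 with DESeq2, 3 with the replicate block and between 7 and 16 with 1 library left out. Among the members it called 0, and 2 with DESeq2, 0 with the block and between 0 and 1 with 1 library left out. The other scalings, filters and limma-voom left the member count at 0. The count of members with a gap of 1 or more was 17, and 26 with a gap of 0.5, 6 among members with under 50% of windows shared (added after seeing the data), and between 18 and 22 with 1 library left out. The count without overlap was 45, and 21 among members with under 50% shared, and between 52 and 57 with 1 library left out, since fewer libraries overlap less often. Scaling by library total and a prior count of 0.5 gave 18 and 19 members with a gap of 1 or more, 1 of them higher in Npas3+/- 1, Npas3+/- 3 and WT 1 in each. The sign of some small fold changes turned with 1 library left out, where the range was -1.17 to 0.069 for Gm9269, -0.20 to 0.15 for Ywhaq, -0.028 to 0.052 for Cpsf3, -0.0042 to 0.11 for Asap2, -0.080 to 0.15 for Rrm2 and -0.092 to 0.076 for Adam17. Cpsf3 was also -0.012 with upper-quartile scaling and -0.0071 with a filter of 1 CPM. The cause was not tested. Most members with a wide gap are under 1 CPM, so their size is limited by depth.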
